A study of Homo sapiens with 12 samples.

Results

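The stretch of chromosome 10 from 73100000 to 73850000 (hg19, as are all peak positions), 750 kb long, holds the genes CDH23, PSAP, CHST3 and SPOCK2. Its members are all H3K27ac peaks of 6 deposited peak lists that overlap it by at least 1 bp, 115 of 190767 peaks in all. The libraries come from 3 human pancreatic cancer cell lines, BxPC3, Panc327 and SUIT2, grown under standard conditions without treatment. Each line gave 2 H3K27ac ChIP libraries, one peak list each, and 2 input libraries that entered through the background of the peak caller. BxPC3 was derived from a primary tumour of the pancreas and SUIT2 from a metastasis, and the labels give Panc327 by name only. The stretch was selected on the peak calls themselves, because BxPC3 had few where the other lines had many. Peak numbers, covered length and region counts between BxPC3 and the other lines are therefore descriptions, with no test.

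H3K27ac is an acetylation of histone H3, laid down by the acetyltransferases p300 and CBP, that marks active promoters and enhancers. PSAP encodes prosaposin, which is cut in the lysosome into the saposins, small proteins that present sphingolipids to the enzymes that break them down. Its neighbours serve the cell surface and the matrix: CDH23 is a long cadherin that forms part of the tip links of hair cells in the inner ear, CHST3 adds sulphate to chondroitin in the Golgi, and SPOCK2 (testican-2) is a secreted proteoglycan. Gene spans on hg19 are approximate: CDH23 from about 73160000 to 73580000, PSAP from about 73576000 to 73611100, CHST3 from about 73724100 to 73773300 and SPOCK2 from about 73820000 to 73850000. CDH23 and CHST3 are transcribed towards higher positions, PSAP and SPOCK2 towards lower ones, so PSAP starts near 73611100. In the RefSeq gene order of GRCh38.p14, C10orf105 and VSIR (the immune checkpoint protein VISTA) lie inside CDH23. SLC29A3 comes before CDH23 and ASCC1 after SPOCK2. No hg19 position was at hand for these genes, and no peak was assigned to them.

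The promoters of CDH23, CHST3 and SPOCK2 are shown because each of these genes starts at or within a few kb of a peak described here. They come from the RefSeq promoter table of GRCh38.p14, 250 bases before to 50 after a start, and 3 of the 4 genes matched (PSAP did not). The first promoter of each gene in the direction of transcription is given, at chr10:71396670-71396969 (plus strand) for CDH23, chr10:71964145-71964444 (plus strand) for CHST3 and chr10:72088983-72089282 (minus strand) for SPOCK2. Capitals mark the GC box GGGCGG on either strand, overlapping matches included.
CDH23: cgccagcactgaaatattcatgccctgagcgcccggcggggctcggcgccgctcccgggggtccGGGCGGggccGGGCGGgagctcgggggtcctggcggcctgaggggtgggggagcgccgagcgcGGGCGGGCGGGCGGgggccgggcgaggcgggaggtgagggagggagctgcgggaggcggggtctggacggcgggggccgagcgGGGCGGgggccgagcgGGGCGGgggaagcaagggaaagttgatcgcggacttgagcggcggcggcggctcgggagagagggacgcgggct
CHST3: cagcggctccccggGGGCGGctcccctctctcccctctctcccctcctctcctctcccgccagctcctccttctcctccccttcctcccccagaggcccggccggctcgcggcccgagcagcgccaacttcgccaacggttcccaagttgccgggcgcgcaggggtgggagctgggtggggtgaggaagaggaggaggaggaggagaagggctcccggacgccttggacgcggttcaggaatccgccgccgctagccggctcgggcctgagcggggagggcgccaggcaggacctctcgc
SPOCK2: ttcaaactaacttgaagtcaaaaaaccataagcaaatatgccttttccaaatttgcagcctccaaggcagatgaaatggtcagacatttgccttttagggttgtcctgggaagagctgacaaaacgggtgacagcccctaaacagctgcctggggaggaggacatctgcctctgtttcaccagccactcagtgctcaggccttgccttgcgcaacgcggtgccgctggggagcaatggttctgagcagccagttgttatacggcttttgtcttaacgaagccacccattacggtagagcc

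The CDH23 promoter held 7 GC boxes, 43 CpG dinucleotides and 80.0% G and C, more G and C than 97.4% of the 35116 promoters of the table. The CHST3 promoter held 1 GC box, 27 CpG and 73.3% G and C. The SPOCK2 promoter held none, with 8 CpG and 50.7% G and C, below the median of 58.7% over the table. A GC box was present in 45.0% of all promoters. The other motifs searched on both strands were the E-box CACGTG (7.26% of all promoters), AP-1 as TGANTCA (7.71%), TGACGT of the cAMP response element (7.98%), CCAAT (34.6%) and TATAAA (11.5%). None of these letters stood in the 3 promoters shown, which says nothing about the factors. Later promoters of the same genes differed. In order of transcription, promoter 2 of CHST3 held 2 GC boxes, 43 CpG and 77.0% G and C. Promoter 3 of CHST3 held 1 AP-1 match, and promoter 3 of CDH23 held 1 match to TGACGT.

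The 6 lists held 27776 to 38335 peaks on chromosomes 1 to 22 and X, and the BxPC3 lists were the longest. Peaks covered 48.7 and 54.6 Mb in BxPC3, 34.1 and 46.3 Mb in Panc327 and 60.1 and 63.3 Mb in SUIT2. The lists state no read depth. The input background solved from the deposited values was 1.96 and 2.37 reads at its genome-wide level in the BxPC3 libraries, 1.46 and 2.85 in those of Panc327, and 3.29 and 3.61 in those of SUIT2. These values carry the fitted pile-up scale of each list, 0.752 and 0.652 in BxPC3 and 1.00 in the others. They therefore do not compare the depth of the lines. The labels do not say whether replicates were separate cultures, so each spread given measures only these libraries. Fold values (ChIP pile-up divided by local background, as the authors' peak caller gave it) depend on the depth of each library and are given to describe a peak in its own list, so folds of different libraries printed together are not compared. Lists are compared by the percentile of a peak by −log10 q, its rank among all peaks of its own list.

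BxPC3 was depleted of H3K27ac peaks over most of the stretch but not empty. BxPC3 replicates 1 and 2 held 4 and 5 peaks, against 36 and 26 in Panc327 and 21 and 23 in SUIT2. Peaks covered 1.93 and 2.32 kb of the 750 kb in BxPC3, 31.3 and 33.1 kb in Panc327 and 40.4 and 42.4 kb in SUIT2. As means this was 2.12 ± 0.276 kb in BxPC3, 32.2 ± 1.27 kb in Panc327 and 41.4 ± 1.41 kb in SUIT2 (SD, n = 2 each). Both BxPC3 libraries lay below all 4 others in peak number and in covered length. Panc327 had more peaks than SUIT2 but a shorter covered length, in every pair of libraries. The shorter length is not particular to the window, since the Panc327 lists also covered less over the genome. Their median peak was 1008 and 1292 bp wide, against 1504 and 1481 bp in the SUIT2 lists. The window held 0.130 and 0.0892% of the peaks of the Panc327 lists and 0.0700 and 0.0732% of those of SUIT2. With 2 libraries against 2 the smallest exact two-sided permutation p is 0.333, and the lines were not tested against each other.

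**Figure D1:**
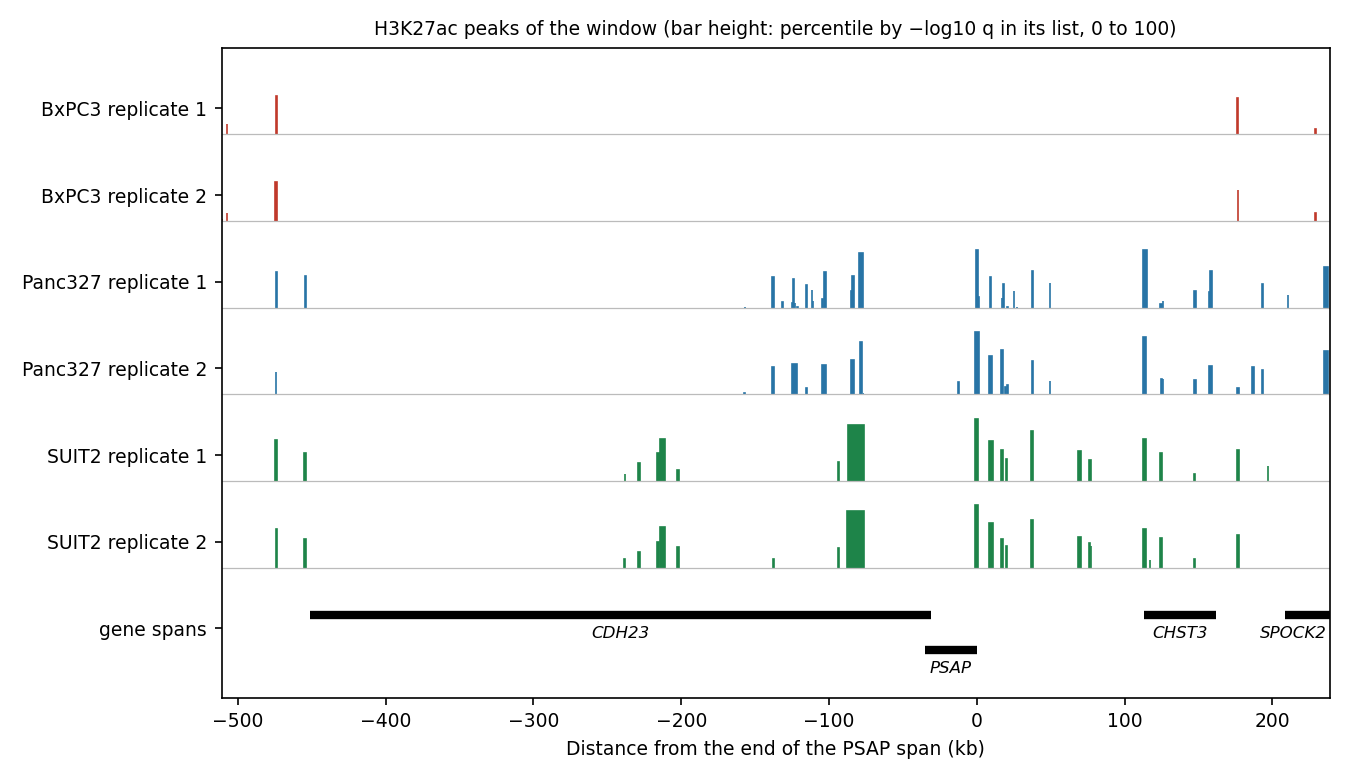
H3K27ac peaks of each library (rows) along the window, by distance in kb from the end of the PSAP span; bar width is peak width and bar height is the percentile of the peak by −log10 q in its own list. BxPC3 has 4 and 5 peaks, near the ends, and none over CDH23, PSAP or CHST3.

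The BxPC3 peaks lay at the ends and left a run of 650 kb, from 73137276 to 73787560, with no BxPC3 peak. It took in the whole spans of CDH23, PSAP and CHST3. Inside this run Panc327 had 33 and 22 peaks covering 27.5 and 26.9 kb, and SUIT2 had 20 and 23 peaks covering 38.4 and 40.7 kb. The highest fold there was 96.4 and 30.1 in Panc327 replicates 1 and 2, and 103 and 123 in SUIT2. BxPC3 runs without a peak that are at least this long were not rare, 750 of 38789 or 1.93%. This one held 9 regions marked in both other lines. No BxPC3 run held more, and 1 other held as many, on chromosome 21 from 42798796 to 43648468. The longest run within the window was 296 kb in Panc327 (73157438 to 73453704) and 215 kb in SUIT2 (73157281 to 73372408), and neither held a region marked in both of the remaining lines. Over the genome such counts were reached in the other lines too. The most regions of both remaining lines in any run was 12 for Panc327 and 9 for SUIT2.

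A region here is the union of peaks of all lists that share bases, and a line marks it when both its libraries have a peak in it. The window held 44 of the 58994 regions. Of its 10 regions marked in Panc327 and SUIT2, 9 had no peak in either BxPC3 library (90.0%), while over the genome 692 of 13603 such regions lacked one (5.09%). The window was selected for this, so nothing is read from the difference. Panc327 alone marked 9 of its 20 regions (45.0%, against 17.2% over the genome) and SUIT2 alone 7 of its 19 (36.8%, against 28.5%); the lack of BxPC3 peaks enters both shares. The remaining regions were 10 with a peak in 1 Panc327 library only, 2 in 1 SUIT2 library only, 2 marked in BxPC3 alone, 1 in BxPC3 replicate 2 only, 1 marked in all lines and 3 with mixed calls. Without Panc327 replicate 2 the regions of Panc327 alone numbered 22: a single library then marks a line, which adds the 8 regions that replicate 1 alone had called, and regions that replicate 2 peaks had bridged split into several. When only libraries whose peaks spanned 50% or more of a region counted, 2 regions were left that Panc327 and SUIT2 both marked, and both lacked BxPC3.

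Panc327 and SUIT2 shared part of their regions. Over the genome most regions they share are marked in all 3 lines (12721 of 13603), and in the window 1 of 10 was. Whether the selection for few BxPC3 peaks bears on the shares that follow was not tested. SUIT2 also marked 10 of the 20 regions marked in Panc327 , while over the genome it marked 68.4% of them. Panc327 also marked 10 of the 19 regions marked in SUIT2 (52.6%), and over the genome 50.6%. The Jaccard index, shared over total covered length, was 0.231 to 0.262 over the 4 pairs of a Panc327 and a SUIT2 library in the window and 0.280 to 0.344 over the genome. Replicates of these lines overlapped in the window about as they did genome-wide, with 0.526 and 0.519 in Panc327 and 0.855 and 0.868 in SUIT2. The BxPC3 replicates, with only 4 and 5 peaks in the window, overlapped less there than genome-wide, where their index was 0.814.

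**Figure D2:**
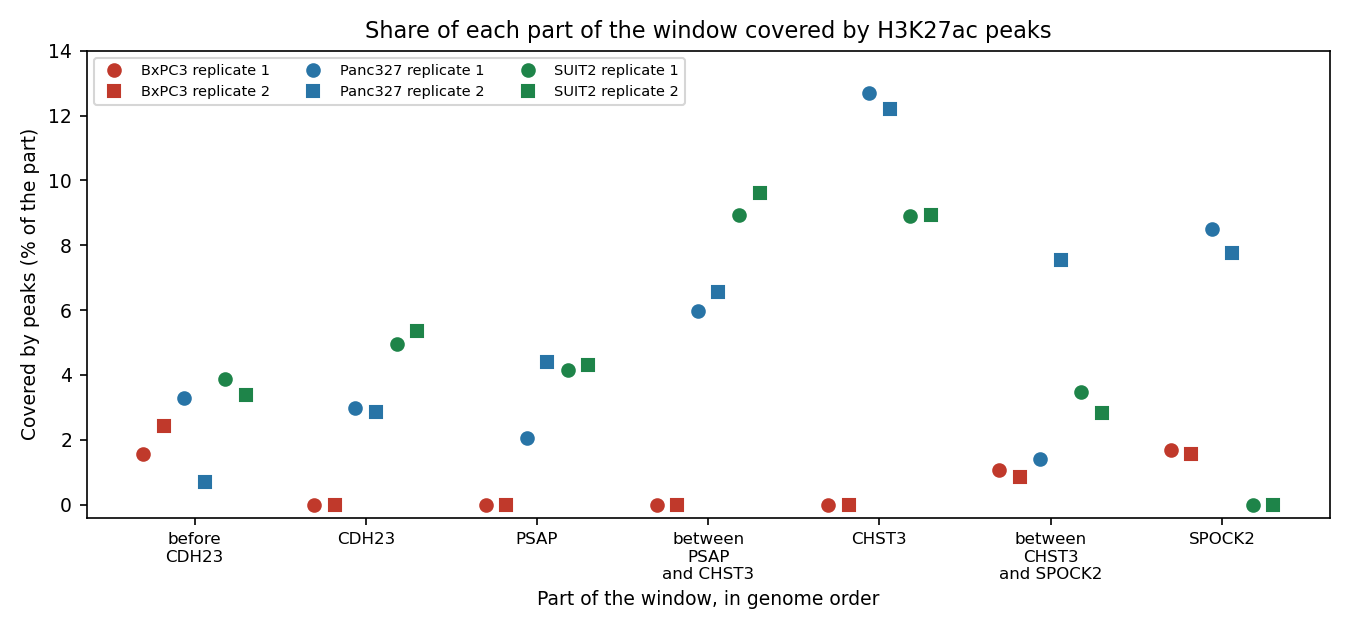
Share of each part of the window covered by H3K27ac peaks, in percent of the length of the part (vertical axis), for the 6 libraries (circles replicate 1, squares replicate 2). BxPC3 stands at 0 from CDH23 to CHST3, and SUIT2 stands at 0 over SPOCK2.

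The start of PSAP carried one of the strongest peaks of the window in both other lines, and no BxPC3 peak lay within 176 kb of it. In Panc327 the peak over 73611100 spanned 73610381 to 73611866 (replicate 1) and 73609968 to 73612652 (replicate 2). In SUIT2 it spanned 73609645 to 73611865 (replicate 1) and 73609583 to 73611816 (replicate 2). Its fold was 85.1 and 30.1 in Panc327 and 103 and 123 in SUIT2. These are percentiles 88.4 and 95.8 of the Panc327 lists and 96.3 and 97.1 of the SUIT2 lists, with ranks 3226 and 1232 and 1122 and 927. The 4 summits fell within 63 bp of each other, between 73610756 and 73610819. The only other peak in the PSAP span was a weak one of Panc327 replicate 2, from 73598583 to 73598994, at a fold of 7.76 and percentile 19.7. Local input background under the peak at the start was 2.04 and 1.39 times its level over the genome in Panc327 and 1.26 and 1.00 times in SUIT2, and its part in the result was not tested.

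Upstream of PSAP, between its start and CHST3, 4 further regions were marked in Panc327 and SUIT2 and had no BxPC3 peak. The region from 73619395 to 73622167 stood at percentiles 47.8 and 59.0 in Panc327 and 61.9 and 68.5 in SUIT2. The region from 73647782 to 73649491 reached a fold of 33.2 and 11.4 in Panc327 and 60.1 and 51.0 in SUIT2. Its percentiles were 56.9 and 52.1 in Panc327 and 77.2 and 73.3 in SUIT2. At the region from 73627407 to 73628665 the Panc327 replicates differed, with percentiles of 15.8 and 68.0, while SUIT2 had 48.6 and 44.8. The region from 73630540 to 73632325 ranked lower in both Panc327 libraries, the lower of them at percentile 1.35, than in SUIT2, at 33.3 and 33.8. SUIT2 alone marked a pair of regions farther up, from 73679645 to 73681855 with a fold of 17.5 and 18.2, and from 73687212 to 73688542 with 10.4 and 12.6. Panc327 alone marked 73660505 to 73660962, with a fold of 17.5 and 7.11. Of this interval, peaks covered 0% in both BxPC3 libraries, 5.97 and 6.57% in Panc327 and 8.92 and 9.61% in SUIT2.

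The start of CHST3 was marked in both lines with peaks, and stood higher in the Panc327 lists. The peak over 73724100 ran from 73723449 to 73726028 and from 73723780 to 73725791 in Panc327 replicates 1 and 2. In SUIT2 it ran from 73723793 to 73725889 and from 73723840 to 73725849. Its fold was 96.4 and 26.7 in Panc327 and 39.8 and 28.9 in SUIT2. It stood at percentiles 89.1 and 88.9 of the Panc327 lists and 65.2 and 60.1 of the SUIT2 lists. This order of the lines, the reverse of that at the start of PSAP, rests on 2 libraries each and was not tested. The nearest BxPC3 peak was 63.5 kb from 73724100 in both libraries. Local input background was 1.70 and 1.20 times its level over the genome in Panc327 and 1.00 and 1.13 times in SUIT2, and its part was not tested either. Which CHST3 promoter of the RefSeq table lies under this peak was not determined, since GRCh38.p14 positions were not converted to hg19.

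Within the body of CHST3 the lines shared weaker regions and differed in others. Panc327 and SUIT2 both marked 73734900 to 73736715, at percentiles 6.06 and 23.1 in Panc327 and 43.1 and 46.5 in SUIT2. They also both marked 73758100 to 73759544, at 26.3 and 21.8 in Panc327 and 11.3 and 13.4 in SUIT2. The regions that Panc327 alone marked were 73736908 to 73737478 and, near the end of the gene, 73768083 to 73770373, where the fold was 31.1 and 7.91. SUIT2 replicate 2 had a peak of its own from 73728176 to 73728533, at a fold of 5.28. Coverage of the CHST3 span was 0% in both BxPC3 libraries, 12.7 and 12.2% in Panc327 and 8.90 and 8.94% in SUIT2.

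**Figure D3:**
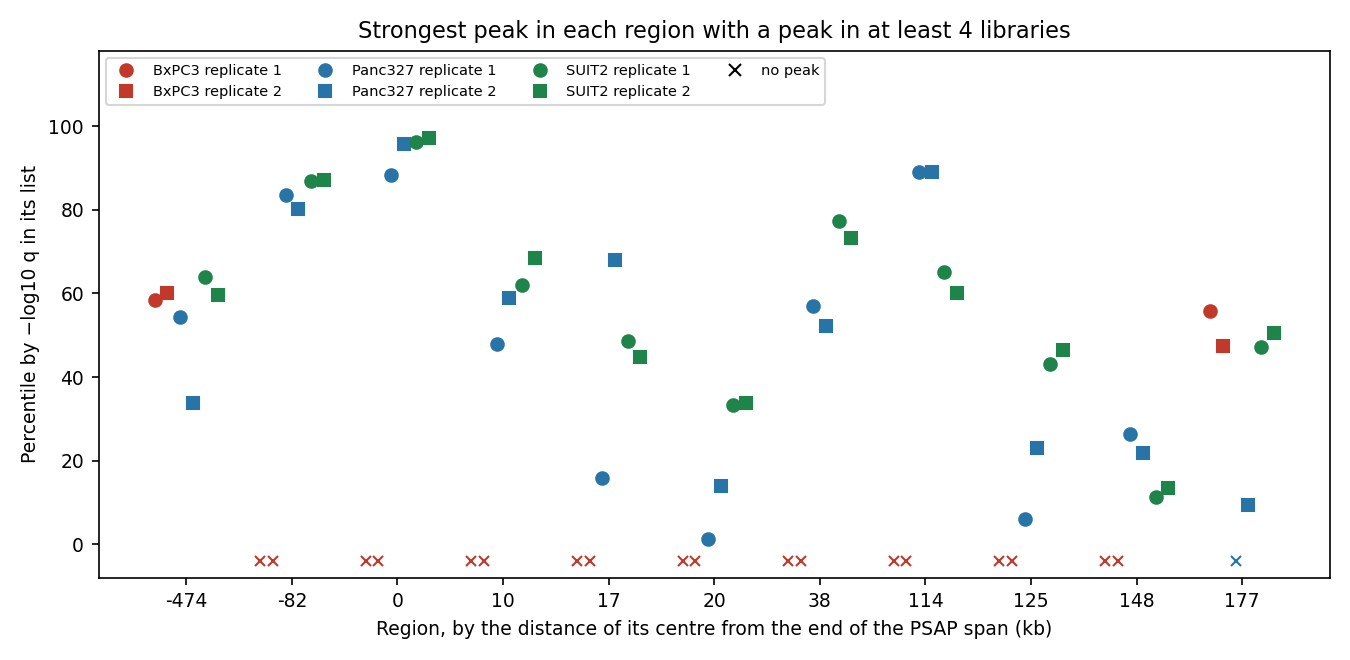
Percentile by −log10 q in its own list (vertical axis) of the strongest peak of each library in the 11 regions with a peak in at least 4 libraries, ordered by distance of the region from the end of the PSAP span; crosses mark no peak. BxPC3 has a peak only in the first and the last of them, where its percentiles are 58.5 and 60.2, and 55.8 and 47.5.

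The span of CDH23, the longest gene of the window, held different clusters in Panc327 and SUIT2 and 1 broad region in common. C10orf105 and VSIR lie inside CDH23 and could not be placed on hg19, so the peaks here are assigned to no gene. The broad region ran from 73523515 to 73534828. SUIT2 called it as 1 peak, 10.6 kb wide in replicate 1 and 11.3 kb in replicate 2, ranks 260 and 250 by width in those lists. Panc327 called 3 peaks there in each library, the widest 2.42 kb in replicate 1 and 2.38 kb in replicate 2. The strongest point differed between the lines: the summits lay at 73533188 and 73533133 in Panc327 and at 73527844 and 73527793 in SUIT2. The replicates were 55 bp apart in Panc327 and 51 bp apart in SUIT2, while libraries of different lines were 5.29 to 5.40 kb apart. The fold at the strongest summit was 88.3 and 22.0 in Panc327 and 62.4 and 66.5 in SUIT2, at percentiles 83.6 and 80.2 in Panc327 and 86.9 and 87.0 in SUIT2. Near the SUIT2 summit Panc327 also had a peak in each library, with summits at 73527680 and 73527325 and a fold of 18.6 and 12.6.

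Farther up in CDH23 the clusters were separate. SUIT2 alone marked 4 regions between 73372409 and 73409677, the broadest from 73394426 to 73399960 with a fold of 38.2 and 29.7 and percentiles of 64.1 and 63.2. It also marked 73516868 to 73518077 alone, at a fold of 10.5 and 10.2. Panc327 had 9 regions between 73453705 and 73509030, of which both its libraries marked 5. The widest of these, 73486052 to 73489176, had a fold of 20.7 and 10.4, and the one from 73506171 to 73509030 had 31.3 and 10.7. SUIT2 touched this cluster once, with a peak of replicate 2 in the region from 73472565 to 73473955, at a fold of 6.72. BxPC3 had no peak in the CDH23 span.

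A peak close to the start of CDH23 was present in 3 of the 4 libraries of the other lines. It ran from 73156156 to 73157437 in Panc327 replicate 1, from 73156084 to 73157280 in SUIT2 replicate 1 and from 73156117 to 73157100 in SUIT2 replicate 2. Panc327 replicate 2 and both BxPC3 libraries had none there. It stood at percentile 48.5 in the Panc327 library and at 43.0 and 44.3 in SUIT2. It ended 2.56 to 2.90 kb before 73160000, the rounded start of the gene. Because that start is rounded, the distance does not place the peak upstream of CDH23. Whether the peak covers the start itself was not determined.

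At SPOCK2 both Panc327 libraries and neither SUIT2 library had peaks. Panc327 had a peak close to the start of SPOCK2, spanning 73846326 to 73848554 (replicate 1) and 73846358 to 73848681 (replicate 2), with a fold of 32.7 and 13.8 and percentiles of 62.9 and 66.1. SUIT2 had no peak in the SPOCK2 span. BxPC3 had a weak peak inside it in both libraries, 73839892 to 73840395 and 73839900 to 73840366, with a fold of 7.71 and 7.45 and a −log10 q of 14.1 and 14.9. That peak was at percentiles 8.50 and 13.1 of the BxPC3 lists, and no other library had one there. Panc327 replicate 1 had a further weak peak, from 73821693 to 73822015, at a fold of 11.1. Under the Panc327 peak near the start, local input background stood at 2.04 (replicate 1) and 1.76 (replicate 2) times its level over the genome, and its part in the result was not tested.

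The other BxPC3 peaks matched those of other lines in 2 places. The region from 73136450 to 73137590, before CDH23, was the only one of the window with a peak in all 6 libraries. Its percentiles were 58.5 and 60.2 in the BxPC3 libraries, 54.4 and 33.9 in those of Panc327, and 63.9 and 59.6 in those of SUIT2, so BxPC3 lay within the range of the others. All 6 summits there fell within 176 bp. The region from 73787145 to 73788582, between CHST3 and SPOCK2, stood at percentiles 55.8 and 47.5 in BxPC3, 9.52 in Panc327 replicate 2 and 47.2 and 50.6 in SUIT2, with no peak in Panc327 replicate 1. The BxPC3 peaks in it were 496 and 397 bp wide, against 1310 and 1328 bp in SUIT2. BxPC3 alone marked 73103396 to 73103795, with a fold of 8.85 and 7.65, and its replicate 2 had a peak of its own from 73100168 to 73100440. All 9 BxPC3 peaks were narrower than the median peak of their list, 1070 and 1030 bp.

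Over the 750 kb on each side of the window, taken whole, the lines differed far less, or in the other direction. In the 750 kb before it BxPC3 had 14 and 11 peaks, against 7 and 8 in Panc327 and 4 and 4 in SUIT2, so both BxPC3 libraries were above all others. In the 750 kb after it BxPC3 had 22 and 25 peaks, Panc327 33 and 31 and SUIT2 27 and 29. That stretch also held a shorter BxPC3 run without peaks, from 73947248 to 74031512, with 5 regions marked in both other lines. Covered length after the window was 42.5 and 47.2 kb in BxPC3, 45.8 and 58.1 kb in Panc327 and 57.7 and 64.4 kb in SUIT2, where BxPC3 replicate 2 exceeded Panc327 replicate 1. The edges were set by hand in the rule: the last BxPC3 peaks before the window ended 239 and 231 bp short of it, each at a higher fold than the first ones inside, which had 8.85 and 6.49. The first BxPC3 peaks after it began 7927 and 7114 bp beyond its end, at a fold of 23.7 and 6.77, and the last ones inside had 7.71 and 7.45.

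**Figure D4:**
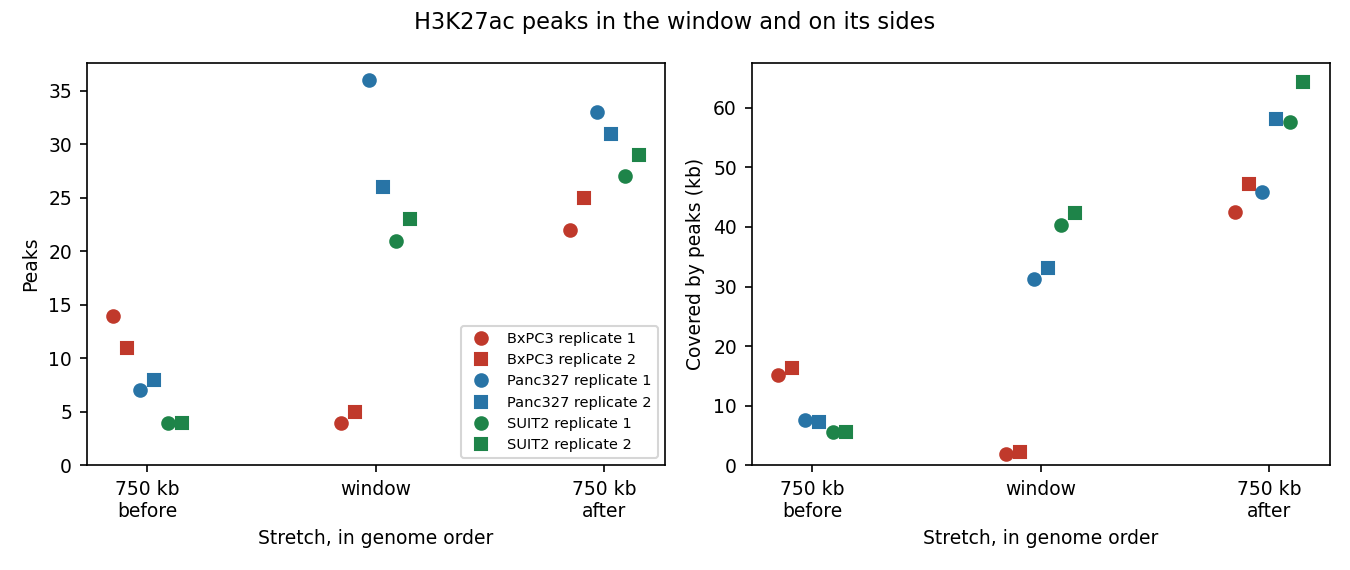
Peak number (left) and covered length in kb (right) of each library in the window and in the 750 kb before and after it. BxPC3 is highest before the window, with 14 and 11 peaks, lowest in it, with 4 and 5, and lowest in peak number after it, with 22 and 25.

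Local input background could be solved at each of the 115 peaks. It entered the peak calls on which the window was selected, so it is not independent of the selection. The median ratio to the genome-wide level in the window was 1.03 and 1.00 in the BxPC3 libraries, 1.09 and 1.22 in those of Panc327, and 1.08 and 1.00 in those of SUIT2. The highest was 1.53 and 1.27 in the BxPC3 libraries, 2.04 and 2.35 in those of Panc327, and 1.57 and 1.77 in those of SUIT2. Over all peaks of a list the median was 1.23 and 1.07 in the BxPC3 libraries, 1.26 and 1.34 in those of Panc327, and 1.08 and 1.00 in those of SUIT2, so no line had a raised median here. The background is known only under peaks and cannot fall below the genome-wide level. The lists therefore hold no value for BxPC3 inside its 650 kb run, and whether its DNA is present there at the usual level cannot be read from them.

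Windows of the same length were counted along the genome to give a scale. Of 301522 windows at steps of 10 kb, 14931 held at least 21 peaks in every Panc327 and SUIT2 list, as this one does. Of those, 30 had at most 5 peaks in each BxPC3 list (0.201%), and they lay in 2 places. Chromosome 21 from 42680001 to 43780001 held 29 of them, and only 1 lay here, at the edges set by hand. Windows shifted from it by 10 kb did not pass both limits. The median over the 14931 windows was 33 BxPC3 peaks, taking the higher library, and the 5th percentile was 21. Neighbouring windows share most of their peaks, and both limits were taken from this window, so the count is a description.

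**Figure D5:**
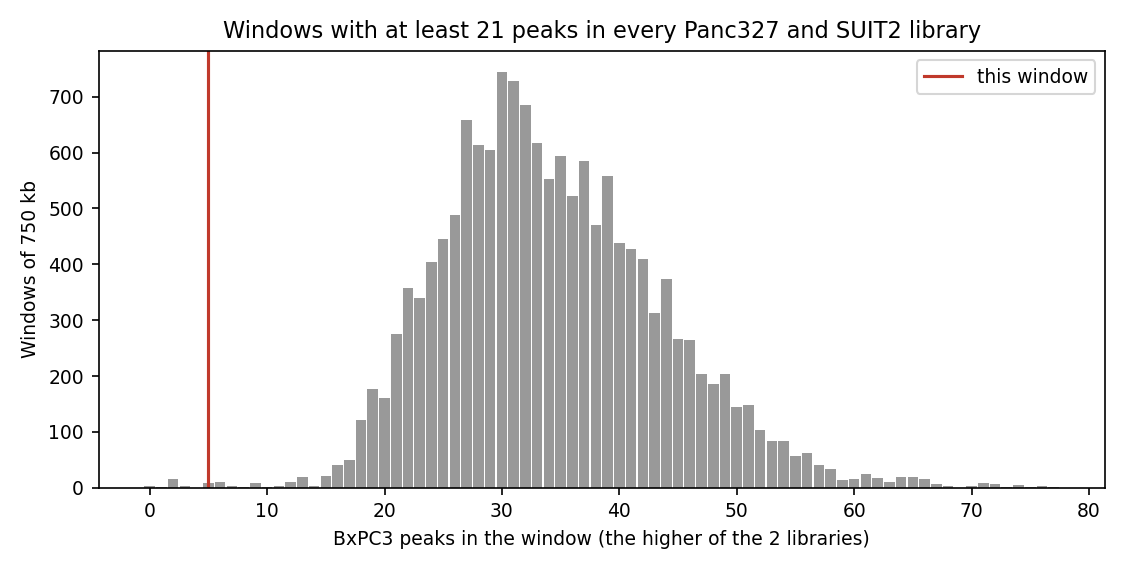
Number of 750 kb windows (vertical axis) by their BxPC3 peaks, the higher of both libraries (horizontal axis), among the 14931 windows with at least 21 peaks in every Panc327 and SUIT2 library. The line marks the CDH23 to SPOCK2 window, at 5 peaks against a median of 33.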

How the data were processed

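H3K27ac peaks were used from 6 ChIP libraries of 3 lines, one deposited list per library. The tools named in the submitters' processing notes are MACS2, Bowtie (version 1.1.1) and bcl2fastq (version 1.8.4), and the build is hg19; MACS2 settings are not given in the sources used here. The deposited fold, a ratio of pile-up to local background with a pseudocount of 1, and the deposited −log10 p and −log10 q values are the authors' per-peak values. The deposited score was 10 times the −log10 p, rounded down, and was not used. The smallest −log10 p in any list was 10.0. Peaks on chromosomes 1 to 22 and X were kept, leaving out at most 3 of a list.

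Overlap needed 1 bp. Fold and −log10 p were solved jointly for pile-up and background, assuming the Poisson form of MACS2. This matched 98.2 to 100% of the peaks of a list within 0.01, with a fitted pile-up scale of 0.752 and 0.652 in the BxPC3 lists. Merging and solving were checked on simulated data. Window, genes, motifs and comparisons were chosen with earlier results of these data known. The rule for names took the 4 genes and their neighbours, the peak with the highest −log10 q in each gene span, every peak touching a gene end, and the 10 regions with the most covered bases. Further regions were named after their values were seen. Gene spans are those of the rule that set the window, since no hg19 annotation was used, and the lines were not checked against cell type markers. Alternatives were a −log10 q of at least 20, equal list lengths, 50% coverage of a region, a 50 kb step and leaving out each library. Scripts ran in Python 3.11.15 with matplotlib 3.10.9, scipy 1.17.1, pandas 2.3.3 and numpy 2.4.6.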

Additional observations from a re-analysis of the deposited data

How the results depend on the processing

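The 650 kb run without a BxPC3 peak was the same length under all 4 alternatives run for it, and windows without any BxPC3 peak made up 18.3% of all windows as deposited and with a 50 kb step, and 21.1% when peaks needed a −log10 q of 20 or more. At that threshold, peak numbers in the window were 2 and 2 in BxPC3 and 15 in Panc327 replicate 2. Of the 7 regions of the window then marked in Panc327 and SUIT2, 6 lacked BxPC3. Panc327 alone marked 6 regions, SUIT2 alone 8 and BxPC3 alone 0. Covered length was then 1.05 and 1.21 kb in BxPC3, 25.8 and 26.3 kb in Panc327 and 40.1 kb in SUIT2 replicate 2, and the genome-wide share of shared regions without BxPC3 was 4.70%. With equal list lengths BxPC3 had 2 and 2 peaks over 1.05 and 1.21 kb, and the share was 6.61%. With 50% coverage of a region, 2 regions of the window were marked in Panc327 and SUIT2 without BxPC3, and the share was 9.63%. Leaving out 1 library at a time gave 9 to 10 such regions in the window, 9 to 22 of Panc327 alone, 7 to 10 of SUIT2 alone and a share of 5.31 to 7.27%. These counts rise in part by construction, since 1 library then marks a line; the cause of the other changes was not tested. No paired analysis was possible because these results come from no test: they are counts and lengths that the selection of the window used, to which no model was fitted. Depth limits weak peaks, and an absent peak is only one that did not pass the threshold of the caller.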

Other observations

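Another BxPC3 run without peaks lay just beyond the window. From 73947248 to 74031512 on chromosome 10, over 84.3 kb, BxPC3 had no peak while 5 regions were marked in both Panc327 and SUIT2. By that count it shared the third place among all BxPC3 runs with a run of 672 kb on chromosome 21, from 46975925 to 47647741. The 4 BxPC3 runs that held the most regions of both other lines were thus a pair on chromosome 10 and a pair on chromosome 21, with 9, 9, 5 and 5 such regions. They were ranked after the values were seen, and no cause was tested.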
